A study of Mus musculus with 6 samples.

Results

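The 9 genes described here are forebrain patterning and stem cell factors: Otx1, Otx2, Lhx2, Emx1, Emx2, Pax6, Nr2e1, Nes and Prom1. Their peaks were taken from 6 lists of chromatin immunoprecipitation followed by sequencing (ChIP-seq), as every peak whose deposited nearest gene was one of the 9. That gave 32 of the 97783 peaks in all lists, for 9 of 21900 protein-coding genes. The cells were primary neural stem cells, cultured from the cortex of newborn mice with EGF and bFGF, and fixed during proliferation. The study asked how loss of Seh1, a nucleoporin of the nuclear pore, acts on gene regulation in these cells. Chd4 is the motor subunit of NuRD, a complex that couples nucleosome remodelling to histone deacetylation, and it was profiled in 4 libraries. These were iKO cells (genotype mutant, treated with 4-OH-TAM, a tamoxifen metabolite commonly used to switch on inducible recombinases), siSeh1 cells (wild type, growth medium), Ctrl cells (wild type, growth medium) and siSCR cells (wild type, growth medium). No label explains these short names. From the series title and the names themselves they are read here as induced deletion of Seh1, knockdown of Seh1 and the matching controls. Seh1 was profiled in 2 libraries, Seh1-flag (titled iKO, treated with 4-OH-TAM, but with the genotype given as wild type) and Seh1 Ctrl (wild type, growth medium). The header of the Seh1-flag list names its peaks "oe_seh1", which may stand for overexpressed Seh1. The sources used here do not say so, nor whether tagged Seh1 replaced the cells' own protein, nor which recombinase or promoter drove the deletion. Each group had 1 library, so no difference below has a replicate check and no p-value is given.

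Cortical identity is set by a small network of transcription factors that are graded or restricted across the early forebrain. Otx1 and Otx2 are homeodomain proteins of the anterior neural tube, Lhx2 is a LIM-homeodomain selector of the cortical field, and Emx1 and Emx2 are homeodomain proteins of the dorsal telencephalon. Pax6, a paired-box factor, opposes Emx2 along the cortical axis and drives neurogenesis in radial glia. Nr2e1 (Tlx) is an orphan nuclear receptor that keeps neural stem cells dividing, Nes encodes the intermediate filament nestin, and Prom1 encodes the surface glycoprotein CD133. NuRD removes histone acetyl marks and moves nucleosomes at promoters and enhancers. Peak lists do not measure RNA, so the labelled cell type could not be checked against the expression of these or other markers.

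A peak was called a promoter peak when it lay within 1000 bp of its nearest transcription start site (TSS) by the deposited distance. Other peaks were called gene body or distal peaks by the deposited annotation, and a gene body can belong to a neighbour. Of the 32 peaks, 5 were promoter peaks, 16 lay in gene bodies and 11 were distal, and 0 lay in an exon or untranslated region. Promoter peaks were found at 4 of the 9 genes. Otx1 (chr11:21994764-22001651 of mm10) and Emx1 (chr6:85187931-85204463) had one for Chd4 in iKO, Otx1 and Lhx2 (chr2:38339271-38369737) had one for Chd4 in siSeh1, and Prom1 (chr5:43993621-44102047) had one for Seh1 in Ctrl. Otx2, Pax6 and Nr2e1 had peaks but no promoter peak, and Emx2 and Nes had 0 peaks in all 6 lists.

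The promoters on which the Chd4 results turn are shown as the 250 bases before the start, with those of the paralogs Emx2 and Otx2 (1 of its starts), which had no promoter peak. Sequences are from the RefSeq promoter table of GRCm38.p6, the assembly of mm10, in which 8 of the 9 genes, all but Otx1, were matched. Capitals mark every CG dinucleotide, the site of DNA methylation. The Lhx2 stretch is chr2:38351058-38351307 on the plus strand, the Emx1 stretch chr6:85187681-85187930 on the plus strand, the Emx2 stretch chr19:59458440-59458689 on the plus strand and the Otx2 stretch chr14:48667645-48667894 on the minus strand.
Lhx2: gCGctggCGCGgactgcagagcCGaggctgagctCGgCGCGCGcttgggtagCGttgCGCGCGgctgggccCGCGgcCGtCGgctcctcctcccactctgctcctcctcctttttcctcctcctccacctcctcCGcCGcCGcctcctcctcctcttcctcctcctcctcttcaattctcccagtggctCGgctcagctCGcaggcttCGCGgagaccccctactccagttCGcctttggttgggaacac
Emx1: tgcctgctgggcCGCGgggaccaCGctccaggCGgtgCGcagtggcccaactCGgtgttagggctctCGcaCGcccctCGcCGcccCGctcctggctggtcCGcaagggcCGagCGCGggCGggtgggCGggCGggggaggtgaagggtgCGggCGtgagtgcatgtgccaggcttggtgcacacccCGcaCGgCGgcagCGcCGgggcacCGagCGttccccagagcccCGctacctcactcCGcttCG
Emx2: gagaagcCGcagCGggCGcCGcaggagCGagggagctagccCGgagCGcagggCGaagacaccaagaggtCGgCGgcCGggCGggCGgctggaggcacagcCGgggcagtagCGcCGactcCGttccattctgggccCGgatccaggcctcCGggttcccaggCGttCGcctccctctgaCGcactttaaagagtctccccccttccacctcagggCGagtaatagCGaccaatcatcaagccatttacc
Otx2: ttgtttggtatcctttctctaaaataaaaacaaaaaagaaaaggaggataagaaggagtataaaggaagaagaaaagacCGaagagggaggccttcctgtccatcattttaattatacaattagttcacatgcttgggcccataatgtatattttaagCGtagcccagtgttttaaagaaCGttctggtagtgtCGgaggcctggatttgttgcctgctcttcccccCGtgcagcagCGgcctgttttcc

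The first 3 of these stretches held 24, 30 and 24 CG dinucleotides, and the Otx2 stretch held 6. The Chd4 peak of Lhx2 in siSeh1 lay 169 bases before the start and that of Emx1 in iKO 167 bases before it, both inside the printed bases. Searches on both strands covered 5 motifs, namely the GC box GGGCGG, the E-box CACGTG, the CCAAT box, the TATA box spelled TATAAA and the homeodomain core TAATTA. The GC box was found 4 times before Emx1. The match on the minus strand, 170 to 165 bases before the start, held the Emx1 peak position itself, and of the 3 matches on the plus strand those 125 to 120 and 121 to 116 bases before the start overlap each other. GGGCGG was present in 32.7% of all 32851 promoter entries over the same 250 bases. The Emx2 stretch held the GC box 2 times, overlapping, and a CCAAT box, and the Otx2 stretch held a TATA box and a homeodomain core. Otx2 has 4 entries in the table, and the one printed, before its most upstream start, has the lowest G and C content of them (42%, against 48.4 to 53.6%). CCAAT was present in 33.8% of all entries, TATAAA in 12.4%, TAATTA in 4.84% and CACGTG in 6.02%. None of the 5 was found in the Lhx2 stretch.

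**Figure D1:**
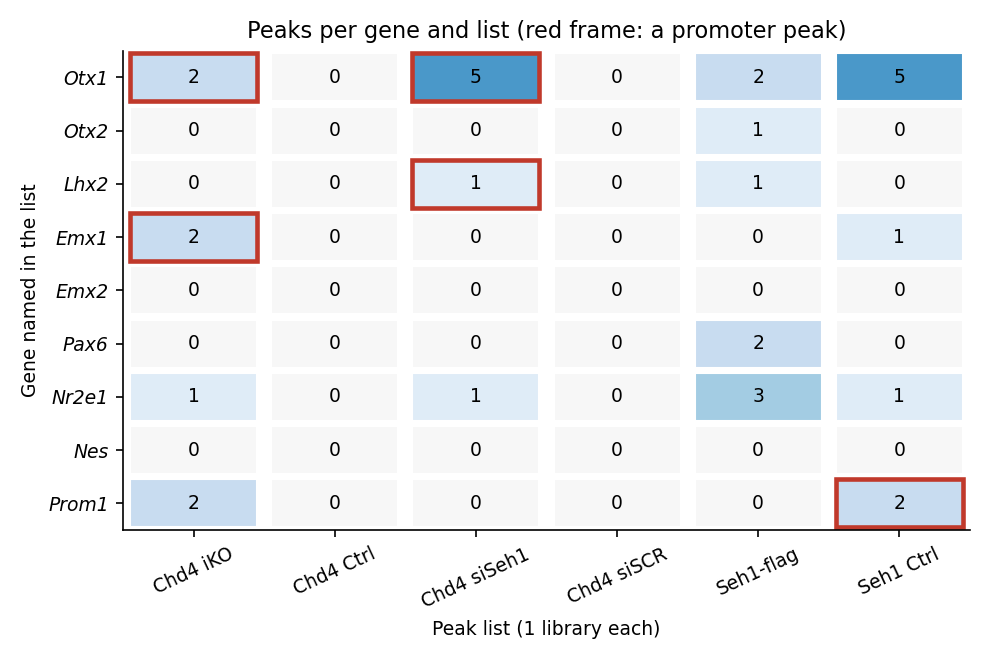
Number of peaks named to each of the 9 genes (rows) in each of the 6 lists (columns, 1 library each), with a red frame where at least 1 of them is a promoter peak. The Chd4 Ctrl and Chd4 siSCR columns are 0 throughout, and Otx1 holds 14 of the 32 peaks.

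Chd4 in iKO cells was compared with Chd4 in Ctrl cells. In iKO Chd4 was listed at the promoters of Otx1 and Emx1, and in Ctrl at the promoter of 0 of the 9 genes. Of all protein-coding genes, 5.18% had a Chd4 promoter peak in iKO and 0.0183% had one in Ctrl. A promoter peak in iKO and none in Ctrl was found for 2 of the 9 members and for 5.18% of protein-coding genes, and the reverse for 0 members and 0.0183% of genes. The exact 95% interval of 2 of 9 runs from 2.81 to 60% and holds the share over all genes, so 2 of 9 was not distinguishable from it. That interval covers counting error only, for genes that were chosen and not drawn at random. The iKO list held 21294 peaks and the Ctrl list 1154.

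Both iKO promoter peaks were of low rank within their list. The peak scores are the authors', on an unstated scale, and are used only to rank peaks within a list. The Otx1 peak, at position 22001705 of chromosome 11 and 54 bp upstream of the start, had a score of 2.71, and 80.4% of the iKO peaks scored higher. The Emx1 peak, at position 85187764 of chromosome 6, scored 3.17, and 56.8% of the list scored higher. Among the 1270 promoter peaks of iKO, 1165 scored above the Otx1 peak and 1024 above the Emx1 peak. Both lay under the list's median promoter score of 4.74. At a minimum score of 5, 0 of the 9 genes kept a promoter peak in iKO, against 515 protein-coding genes (2.35%).

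The other 5 iKO peaks of the 9 genes stood higher in the list than the 2 promoter peaks. An intergenic peak 38.7 kb downstream of the Nr2e1 start and a peak in an intron of Prom1 each scored 4.74, with 10.3% of the list above them. The Prom1 peak lay in a SINE repeat, 42.2 kb downstream of the Prom1 start at position 44094768. A second Prom1 peak, in an LTR retroelement 36.1 kb upstream of the start at position 44101736, scored 4.72. A peak named to Emx1, 25.2 kb downstream, scored 4.62 and lay at the transcription end of the neighbour Sfxn5, a mitochondrial carrier. The farthest, 197.7 kb downstream of the Otx1 start, scored 4.22 and lay in a LINE repeat in an intron of Wdpcp, a planar cell polarity effector. In iKO the non-promoter peaks therefore scored 4.22 to 4.74 and the promoter peaks 2.71 and 3.17, with no overlap. Over the whole iKO list the order was the reverse, with a median score of 4.74 for promoter peaks against 3.39 for all peaks. The order in these 7 peaks was noticed after the values were seen.

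The iKO list also held exon or untranslated region peaks at 10 of 15 liver genes, which neural cells are not known for. The count for these liver genes was 0 in each of the other 5 lists. Markers of other cell types had such peaks too. In siSeh1 they lay at 2 of 9 astrocyte markers and 2 of 10 microglial and endothelial markers. They also lay there at 2 of 11 oligodendrocyte lineage markers and 1 of 15 neuronal markers. In iKO they lay at 2 of the 11 oligodendrocyte lineage markers and at 0 of the other 3 kinds. The whole iKO list held 587 exon or untranslated region peaks, so at most 587 of the 21900 protein-coding genes can carry one. Over the whole list, 2.76% of iKO peaks lay in exons or untranslated regions, against 0.953% of the Ctrl peaks. The shares were 3% in siSeh1 and 2.34% in siSCR, so a share of this size was not particular to iKO. Both of these lists had 0 such peaks at the liver genes, so the whole-list share does not follow the liver count. None of the 7 iKO peaks of the 9 genes lay in an exon or untranslated region. At a list share of 2.76%, 7 peaks are too few for this to be informative. The part of the liver gene signal in the iKO promoter peaks was not tested.

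Chd4 in siSeh1 cells was compared with Chd4 in siSCR cells. In siSeh1 Chd4 was listed at the promoters of Otx1 and Lhx2, and in siSCR at the promoter of 0 of the 9 genes. A promoter peak in siSeh1 was found for 11.8% of protein-coding genes and one in siSCR for 1.63%. Of the members, 2 of 9 had a promoter peak in siSeh1 and none in siSCR, against 10.5% of all protein-coding genes, and 0 had the reverse, against 0.297%. The siSeh1 list held 26935 peaks and the siSCR list 2606. The interval of 2 of 9 is the one given for iKO and holds the share over all genes here too.

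In this list the 2 promoter peaks were the highest-scoring of the 7 peaks of the 9 genes. The Otx1 peak, at position 22001670 of chromosome 11 and 19 bp upstream of the start, scored 8.14, with 2.94% of the siSeh1 peaks above it. The Lhx2 peak, at position 38351139 of chromosome 2, scored 6.28, with 4.78% above it. Both were above the median promoter score of 5.07, and 674 and 1012 of the 2815 promoter peaks of siSeh1 scored higher than Otx1 and Lhx2. The Lhx2 peak lies between the Lhx2 start shown above and that of Gm27197, a long non-coding RNA, 568 bp apart, so it cannot be assigned to one of them alone. Lhx2 has another start upstream in the same table, and no peak of any list lay within 1000 bp of that one.

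The remaining siSeh1 peaks scored 2.36 to 3.95. Of these, 4 were named to Otx1 and lay 26.6 to 183.8 kb downstream of its start, 2 of them in introns of Wdpcp and 2 in intergenic sequence. The fifth, 26.3 kb upstream of the Nr2e1 start, lay in a satellite repeat and scored 3.05.

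**Figure D2:**
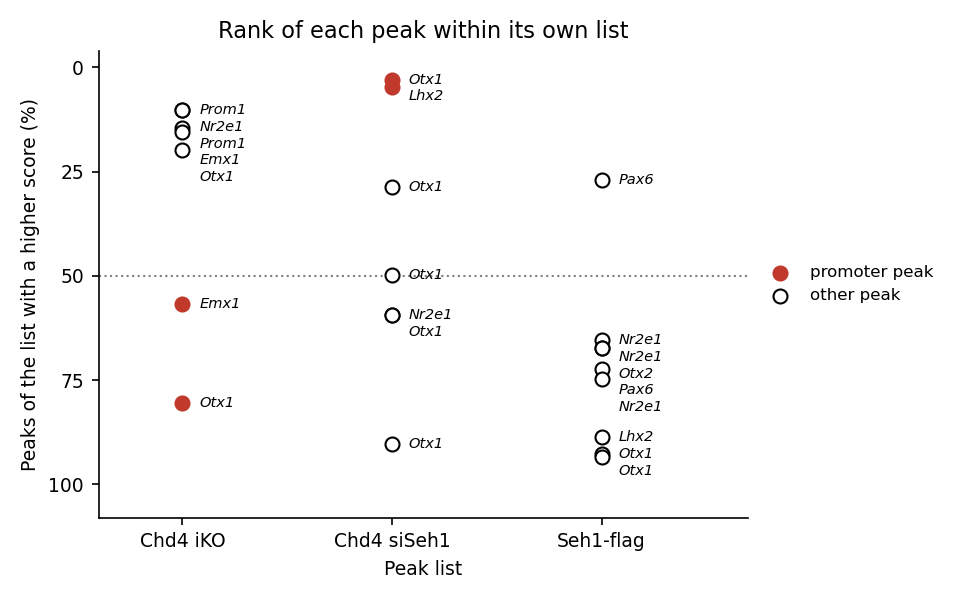
Share of the peaks of a list that score higher (y axis, %, 0 at the top) for each peak of the 9 genes in the 3 scored lists that hold any (x axis), with promoter peaks filled red and gene names beside the points in order of rank. In Chd4 siSeh1 the promoter peaks of Otx1 and Lhx2 stand at the top (2.94 and 4.78%), and in Chd4 iKO those of Emx1 and Otx1 stand below the other peaks (56.8 and 80.4%).

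Otx1 was the member with Chd4 at its promoter in both perturbed lists. The peaks in iKO and siSeh1 lay 35 bp apart and overlapped when each position was widened to 240 bp. No other peak of the 9 genes overlapped a peak of another list, whatever gene that peak was named to. A promoter peak gained in both comparisons was found for 1 of the 9 members and for 476 protein-coding genes (2.17%). The iKO and Ctrl libraries are separate from the siSeh1 and siSCR libraries, so these comparisons share no control. The score order within the lists differed: 80.4% of iKO peaks but 2.94% of siSeh1 peaks scored above the Otx1 promoter peak. Chd4 promoter peaks in iKO and siSeh1 and in no other list were found for 469 protein-coding genes. The 3 nearest to Otx1 by the mean share of higher-scoring peaks over these 2 lists (41.7% for Otx1) were Sfxn5 (41.5%), Idi1, an isomerase of sterol synthesis (41.9%), and Orc6, a subunit of the origin recognition complex (41.3%). Idi1 and Orc6 had the same score as Otx1 in iKO, 2.71, and scored 7.71 and 9.23 in siSeh1. Sfxn5 had the opposite order, with 6.55 in iKO and 2.68 in siSeh1.

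Lhx2 and Emx1 each had a Chd4 promoter peak in one of the perturbed lists. For Lhx2 the nearest iKO peak lay 74.4 kb from a start of the gene, and for Emx1 the nearest siSeh1 peak lay 64.8 kb away. Their patterns were shared by 1788 and 401 protein-coding genes. Taking iKO and siSeh1 together, 3 of the 9 members had a Chd4 promoter peak, against 13.8% of protein-coding genes. With 1 library each, a peak listed in one perturbation and not in the other is not shown to differ between them.

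Counting peaks of every class, the 9 genes held 0.0329% of the iKO list (7 peaks, exact 95% interval 0.0132 to 0.0677%) and 0.026% of the siSeh1 list (7 peaks, 0.0104 to 0.0535%). In Ctrl 0 of 1154 peaks were named to them, which allows a share of up to 0.26%, and in siSCR 0 of 2606, which allows up to 0.115%. The shares in the perturbed cells lie below what a count of 0 allows in the shorter control lists, so a lower share in control cells was not detectable at these list lengths. These limits and intervals cover counting error only, and the read depth behind each list is unknown. The nearest siSCR peak to a start of a member lay 43.8 kb from Pax6 and the nearest Ctrl peak 195.7 kb from Nr2e1. For Otx1 the nearest Ctrl and siSCR peaks were 1224 kb away.

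**Figure D3:**
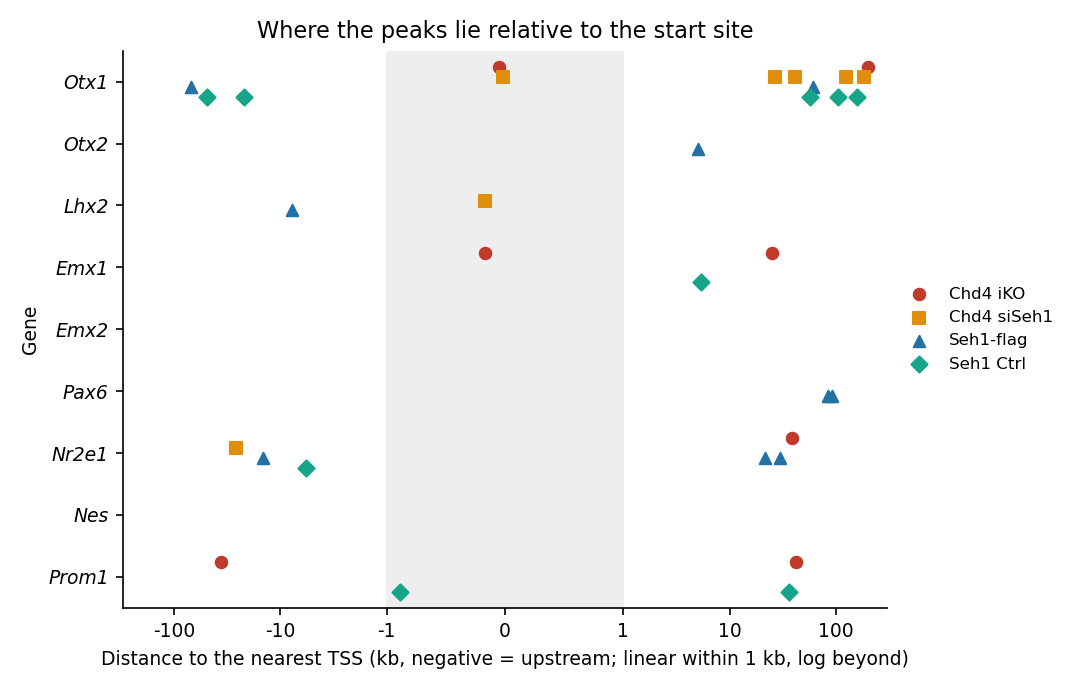
Signed distance of each of the 32 peaks from the nearest start site (x axis, kb, linear within the grey band of 1 kb on either side and logarithmic beyond), by gene (rows) and list (colour and shape). Chd4 peaks of Otx1, Lhx2 and Emx1 stand at the start, the Seh1 Ctrl peak of Prom1 lies at the edge of the band, and the Emx2 and Nes rows are empty.

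Seh1 was profiled in Seh1-flag and Seh1 Ctrl, with 9 peaks named to the 9 genes in each list. Of the Seh1-flag peaks, 0 lay at a member's promoter, against 1.33% of protein-coding genes with one, and of the Seh1 Ctrl peaks 1 did, at Prom1, against 1.02%. That peak covered 44102444 to 44102798 of chromosome 5, and its centre lay 885 bp upstream of the Prom1 start. A second Seh1 Ctrl peak lay in an intron of Prom1, 35.7 kb downstream of a start. The Seh1-flag peak nearest to a Prom1 start was 94.1 kb away and was named to Tapt1, so the promoter peak was seen in one Seh1 list. The Seh1 Ctrl scores are all 0, so its peaks have no rank.

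Otx1 and Nr2e1 had most of the other Seh1 peaks. Otx1 had 2 in Seh1-flag and 5 in Seh1 Ctrl, all 21.8 to 157.6 kb from its start and 5 of the 7 in LINE, SINE or LTR repeats. Repeats of any kind held 56.8% of all Seh1-flag peaks and 49.1% of all Seh1 Ctrl peaks. Nr2e1 had 3 in Seh1-flag, one of them at its transcription end, and 1 in Seh1 Ctrl, 5.7 kb upstream of the start. The closest pair between the Seh1 lists, near Otx1, was 2808 bp apart, and none overlapped.

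Otx2, Lhx2, Emx1 and Pax6 each had Seh1 peaks in one of the lists. Otx2 had 1 in Seh1-flag at its transcription end (score 3.85), Lhx2 had 1 in Seh1-flag 7.72 kb upstream of its first start (2.96), and Emx1 had 1 in Seh1 Ctrl in its first intron. Pax6 had 2 in Seh1-flag, 84 and 91.8 kb downstream of its nearest start, with scores of 3.77 and 5.49. Both lay in an intron of Elp4, an Elongator subunit whose introns are known to hold long-range enhancers of Pax6, and both were annotated to repeats, a LINE and a run of T. The second was the highest-scoring Seh1-flag peak of the 9 genes, with 27% of that list above it, and the others had 65.4 to 93.5% above them. The nearest Seh1 peak to any Chd4 peak of the 9 genes was 5582 bp away, between the Emx1 promoter peak of iKO and the Seh1 Ctrl peak in the Emx1 intron.

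Several of the 9 genes have an antisense or divergent partner close to their start, and a peak near such a pair can carry the partner's name in the lists. Partners with a start within 5000 bp were Gm32517 for Otx1, Otx2os1 for Otx2, Gm27197 and Gm46736 for Lhx2, Emx2os for Emx2, Pax6os1 for Pax6 and Gm38491 for Nr2e1. Among them, Emx2os, the antisense transcript that starts 55 bp from Emx2, had 2 Chd4 peaks in siSeh1 and 1 Seh1 Ctrl peak, all in its first intron. They lay 24794, 7078 and 3490 bp from the Emx2os start, and the siSeh1 peaks scored 3.79 and 3.58. The siSCR list held 0 peaks at Emx2os. Otx2os1, which starts 1644 bp from Otx2, had intron peaks 17118 to 70837 bp from its start: 1 in siSeh1, 1 in Seh1-flag, 3 in Seh1 Ctrl and 1 in siSCR. The siSCR peak of Otx2os1 was thus a Chd4 peak in control cells, 49.8 kb from Otx2. Pax6os1 had 0 peaks under its own name. Peaks named to Paupar lay inside its span, in siSCR at position 105625074 of chromosome 2 and in Seh1 Ctrl at 105563572. The siSCR one, also a Chd4 peak in control cells, lay 43.8 kb from a Pax6 start. No promoter peak carried a partner's name in any list, though the siSeh1 peak named to Lhx2 also lies within 1000 bp of the Gm27197 start. Searching by position in place of the deposited name gave the same members with a promoter peak in each list.

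The 2 members with no named peak differed in their surroundings. Around Nes the nearest peaks were 44.8 kb away in iKO, 79.6 kb in siSeh1, 106.5 kb in Seh1-flag and 60.5 kb in Seh1 Ctrl, all named to other genes. Around Emx2 they were 86.1 kb away in iKO and 7.13 kb in siSeh1, and 100.3 kb in Seh1-flag and 3.54 kb in Seh1 Ctrl. The siSeh1 and Seh1 Ctrl peaks are those named to Emx2os.

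Most peaks named to the 9 genes were far from them. The median distance to the start was 32.6 kb, 22 of the 32 peaks lay beyond 20 kb, and 11 lay inside another protein-coding gene. Repeats held 13 of the 32 (40.6%), against 48.9% of all peaks. Since the lists name a peak by the nearest start, genes with more sequence to themselves can collect more peaks. Between the flanking peaks of other genes, the stretch around Otx1 was 435.3 kb long and that around Nes 124.4 kb. The 9 stretches together held 4.16 iKO, 4.16 siSeh1, 5.35 Seh1-flag and 5.35 Seh1 Ctrl peaks per Mb, against 7.78, 9.86, 9.12 and 7.62 per Mb over all chromosomes. The stretches end at peaks by construction, which lowers their values. In the Otx1 stretch both siSeh1 and Seh1 Ctrl reached 11.5 per Mb, from 5 peaks each. As many siSeh1 peaks as Otx1 were named to 3.93% of protein-coding genes, and as many Seh1 Ctrl peaks to 3.1%.

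The CG content of the promoters is a property that the choice of genes did not use. Of the 8 genes with a promoter entry, 6 (Lhx2, Emx1, Emx2, Pax6, Nr2e1 and Nes) had at least 1 with over 50% G and C and a ratio of observed to expected CG over 0.6. Counted by entry, 7 of the 14 entries of these genes met the limits, against 30.8% of all promoter entries. The ratio was 0.882 for the Lhx2 entry with the siSeh1 peak and 0.842 for the Emx1 entry with the iKO peak, and 0.413 for the Prom1 entry with the Seh1 Ctrl peak. Over all entries, CpG-rich promoters held a Chd4 peak within 1000 bp in 9.46% of cases in iKO and 23.2% in siSeh1, against 2.44% and 4.48% of the other promoters. In siSCR these shares were 3.7% and 0.484%. In Ctrl 1 CpG-rich and 6 other promoter entries held a peak (0.00989% and 0.0264%). The share was also lower for CpG-rich promoters in the Seh1 lists, with 1.04% of CpG-rich and 1.29% of other promoters in Seh1-flag, and 0.643% and 1.28% in Seh1 Ctrl. The Chd4 peaks of Lhx2 and Emx1 were thus at promoters of the kind that held most Chd4 promoter peaks, as 69.7% of the siSeh1 and 63.2% of the iKO promoter entries with a peak were CpG-rich. Emx2, Pax6, Nr2e1 and Nes have such promoters too and had no Chd4 promoter peak.

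**Figure D4:**
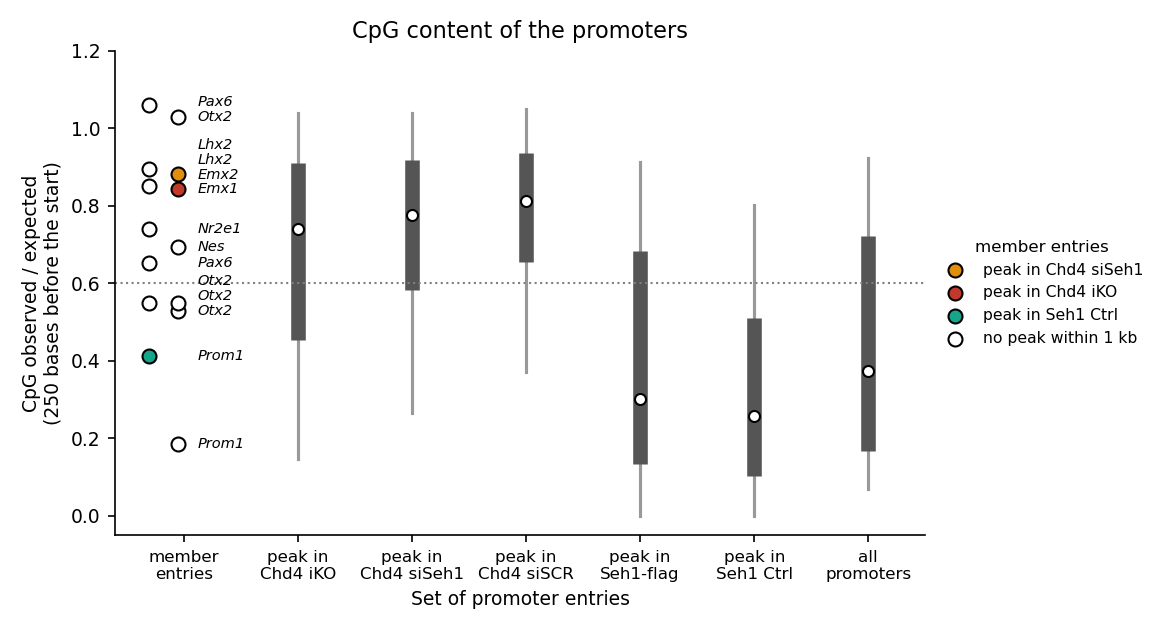
Ratio of observed to expected CG in the 250 bases before the start (y axis) for the 14 promoter entries of 8 members (points, named in order of value and coloured by the list with a peak within 1000 bp) and for sets of promoter entries (x axis: circle, median; thick bar, quartiles; thin line, 10th to 90th percentile). The Lhx2 and Emx1 entries with a Chd4 peak (0.882 and 0.842) stand above the median of all promoters (0.373), and the dotted line is the limit of 0.6.

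Genes related to the 9 were counted in the same way. Of 32 stem cell and radial glia genes, 4 had a promoter peak in siSeh1 (12.5%) and 1 in iKO (3.12%), against 11.8% and 5.18% of all genes. They were Hes1, a Notch effector (17.3 in siSeh1 and 3.46 in iKO), Sox2, a stem cell transcription factor (6.86 in siSeh1), Id4, an inhibitor of helix-loop-helix factors (5.66), and Fgfr2, a receptor of fibroblast growth factors (2.36). Hes1 was near the top of siSeh1 (0.494% of peaks higher) and near the middle of iKO (45.5%).

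The other 2 related lists were at or below the share over all genes. Of 22 ventral telencephalon, midbrain and hindbrain factors, Dlx2 (2.93) and Hoxa2 (4.58) had a promoter peak in siSeh1 and 0 had one in iKO. Of 20 patterning signals, Axin2, a Wnt target, had one in siSeh1 (4.58) and Bmp7 one in iKO (2.08). These 3 lists had 0 Chd4 promoter peaks in both Ctrl and siSCR.

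Cell type markers were counted as well, beside 11.8% of all protein-coding genes with a Chd4 promoter peak in siSeh1 and 5.18% in iKO. Of 11 oligodendrocyte lineage markers, Olig1, Olig2, Gpr17 and Sox10 had a Chd4 promoter peak in siSeh1 (36.4%), and Olig1 also in iKO (9.09%). Of 15 neuronal markers, Syt1 and Slc17a7 had one in siSeh1 (13.3%, near the share over all genes) and 0 in iKO. These lists are short, and no difference from all genes was tested. The astrocyte list (9 genes) and the microglial and endothelial list (10 genes) had 0 promoter peaks in every list. Each had exon or untranslated region peaks at 2 genes in siSeh1. Of the 15 liver genes, Tat had one in iKO and Apob one in Seh1 Ctrl. Whether cells of other types were present does not follow from peak lists and was not tested.

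**Figure D5:**
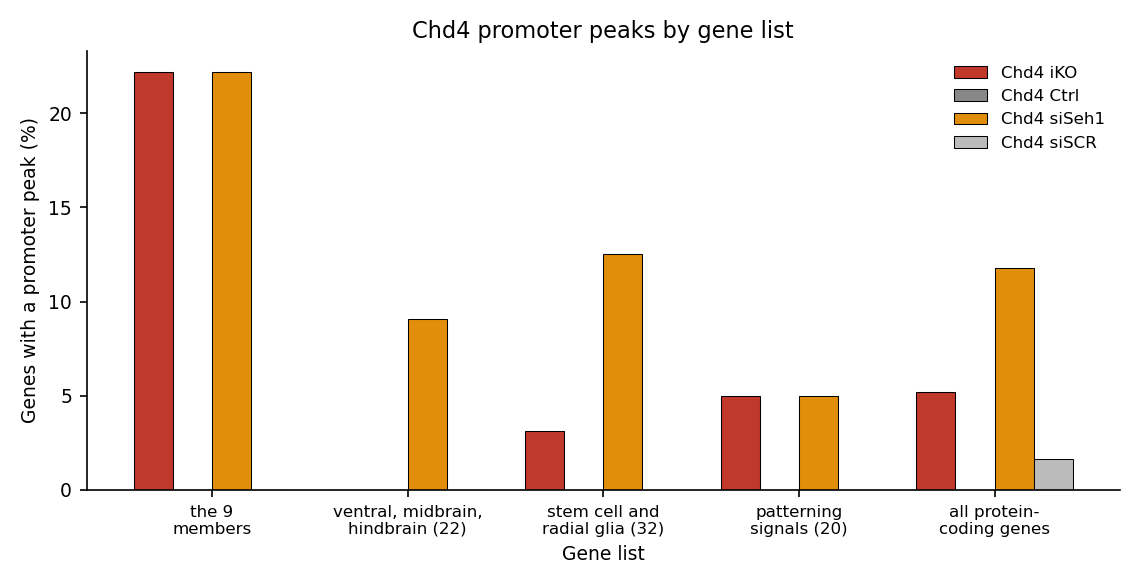
Share of genes with a Chd4 promoter peak (y axis, %) in the 4 Chd4 lists (bars, 1 library each) for the 9 members, 3 lists of related genes with their numbers of genes, and all protein-coding genes. The members stand at 22.2% in both iKO and siSeh1 and at 0 in Ctrl and siSCR, where 22.2% is 2 of 9 genes.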

How the data were processed

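Peak lists of 6 libraries, 1 for each group, were analysed as deposited. Per the file headers, the authors annotated the peaks with HOMER on mouse build mm10. The submitters' processing notes list Bowtie2 and HOMER with no version, and name human builds only. Nothing in the sources used here gives the peak caller, its threshold or whether libraries were pooled. The list names in the headers hold the word input, with no account of its use. The deposited peak score was used to rank peaks within a list, and its scale is not stated. Seh1 Ctrl peaks are intervals, 240 to 1296 bp long, and all their scores are 0. The other 5 lists hold single positions, widened here to 240 bp for overlaps of at least 1 bp. Distances to the TSS are those deposited.

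Gene spans and names were read from RefSeq's GRCm38.p6 table, and this matched 99.84% of 18892 gene identifiers. Exact Clopper-Pearson 95% intervals were computed for shares (scipy 1.17.1, pandas 2.3.3, Python 3.11.15), and a count of 0 was given a limit of 3 counts. The code was checked on simulated lists. With 1 library in each group no test across conditions was made. The members and gene lists were chosen with earlier results of these data known. Text names all 9 members, partner genes with a start within 5000 bp, up to 6 genes of each list with a Chd4 promoter peak in iKO or siSeh1, and the 3 genes nearest to Otx1 in pattern. Apob was named after its values were seen. A further list of related genes was examined and is not reported here. Alternatives changed the promoter window, score limit, list length, gene assignment, control and overlap rule.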

Additional observations from a re-analysis of the deposited data

How the results depend on the processing

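Of 63 alternative values for 15 results, 46 stayed within 1.5 times the reported count and 17 did not. Many of the 46 were counts of 0 that a narrower window, a score limit or shorter lists could not change. The tally is therefore no measure of stability. At a minimum score of 5, members with a promoter peak, and members gained against Ctrl, fell to 0 in iKO, and peaks of the 9 genes to 0 in iKO, 2 in siSeh1 and 1 in Seh1-flag. With scored lists cut to the 1154 peaks of the shortest, the same iKO counts were 0, siSeh1 kept 1 promoter and 1 gained member (Otx1) and 1 peak, and Seh1-flag kept 0 peaks. With a promoter window of 500 bp the Seh1 Ctrl count fell to 0, since the Prom1 peak lies 885 bp away. Counting only peaks inside a member gene or within 1000 bp of its start gave 3 in iKO, 2 in siSeh1, 2 in Seh1-flag and 3 in Seh1 Ctrl. These alternatives leave fewer peaks to count, but not evenly so. At a minimum score of 5, 45.4% of the protein-coding genes with an iKO promoter peak kept one. The 2 iKO promoter peaks of the members, with scores of 2.71 and 3.17, did not pass. Both of those in siSeh1 did, where 51.5% of the protein-coding genes with a promoter peak kept one. The promoter window of 2500 bp, assignment by position, siSCR as the control of iKO, a limit of 100 kb on distance and the other overlap rules changed no count by more than 1.5 times. With 0 member promoters in siSCR, as in Ctrl, the change of control could not move the iKO count. No paired analysis was possible because each group had 1 library. List length and unknown depth limit every comparison with Ctrl and siSCR.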

Other observations

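Within the Chd4 lists, promoter and other peaks of the 9 genes stood in opposite order of score. In siSeh1 the promoter peaks scored 6.28 and 8.14 and the other 5 peaks at most 3.95, and in iKO the promoter peaks scored 2.71 and 3.17 and the other 5 peaks at least 4.22. Over all genes the median promoter score was above the median of the list in both (5.07 against 3.35 in siSeh1, 4.74 against 3.39 in iKO). The members in iKO were therefore low among the promoter peaks of their own list. This order was noticed after the values were seen and rests on 7 peaks in each of 2 libraries.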
